A study of Mus musculus with 6 samples.

Results

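The genes described here are 10 transcription factors and cofactors of the Schwann lineage, the glia that ensheathe and myelinate peripheral axons: Sox10, Egr2, Pou3f1, Pou3f2, Sox2, Jun, Zeb2, Nab1, Nab2 and Id2. They were chosen by symbol for their known roles, and they are 10 of the 41605 genes counted in all 6 libraries. The libraries are droplet single-cell RNA-seq (10x Genomics) of cells from mouse sciatic nerve, 3 at postnatal day 1 (P1) and 3 at postnatal day 60 (P60), each from a separate run on a pooled suspension of both sexes. Both ages carried the same alleles (P0Cre-/+: ReYFP Tg/+: βAct-DsRed Tg/+) on the C57bl/6J background, so the groups were alike in genotype and differed in age. P0Cre is expressed in the Schwann lineage and switches on an eYFP reporter there, while DsRed is driven by a ubiquitous β-actin promoter and was used to sort live nerve cells. At P1 a part of the cells positive for both reporters was removed by the sorter, and for this reason cell shares are not compared between ages. The paper also names possible subsampling of Schwann cells, above all from heavily myelinated nerves, as a limit of its dissociation and sorting. Its part in the levels compared between ages was not tested.

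Sox10 is an HMG-box factor that Schwann cells need at every stage, from neural crest onwards. With the POU factors Pou3f1 (Oct6) and Pou3f2 (Brn2) it switches on Egr2 (Krox20), the zinc-finger factor that drives myelination, and Egr2 acts with its cofactors Nab1 and Nab2. Sox2, Jun and the helix-loop-helix protein Id2 are known as brakes on that program, and Zeb2 is known to repress such brakes so that myelination can proceed. Immature Schwann cells become either promyelinating and then myelinating cells, each with a single large axon, or non-myelinating (Remak) cells that hold several thin axons.

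In the coordinates of GRCm38, Sox10 lies at chr15:79154908-79165240 on the minus strand, Egr2 at chr10:67535475-67542188 on the plus strand and Id2 at chr12:25093799-25097140 on the minus strand. The single-exon genes are Pou3f1 (chr4:124656807-124660655, plus), Pou3f2 (chr4:22482780-22488366, minus), Jun (chr4:95049034-95052222, minus) and Sox2 (chr3:34650405-34652461, plus), which lies inside Sox2ot on the same strand, so reads of that pair may not be separable. Zeb2 spans chr2:44983632-45117395 on the minus strand, Nab1 chr1:52457294-52500679 on the minus strand and Nab2 chr10:127660918-127668568 on the minus strand, where Stat6 and Nemp1 overlap it on the opposite strand.

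Promoters from RefSeq (GRCm38.p6) are shown for Egr2 and Jun, which stand for the myelin program and its brakes and whose levels differ between the Schwann states described below. Each is the 250 bases before a transcription start, written 5′ to 3′ on the strand of the gene, with motif matches in capitals. The start used for Egr2 lies within the annotated gene, and so does the whole window shown. Egr2 has 5 such windows, and the third (chr10:67537619-67537868, plus), shown here for its matches, holds the octamer ATGCAAAT, the motif that POU factors read, which begins 127 bases before the start, and the CArG box read by serum response factor at 72 bases before it. The Jun window (chr4:95052223-95052472, minus) holds the AP-1 variant TGACATCA at 45 bases before the start.
Egr2: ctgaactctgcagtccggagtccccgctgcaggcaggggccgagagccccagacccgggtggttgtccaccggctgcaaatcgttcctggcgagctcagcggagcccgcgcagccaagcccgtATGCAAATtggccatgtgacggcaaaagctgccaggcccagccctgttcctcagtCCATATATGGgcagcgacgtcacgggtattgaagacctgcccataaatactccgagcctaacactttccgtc
Jun: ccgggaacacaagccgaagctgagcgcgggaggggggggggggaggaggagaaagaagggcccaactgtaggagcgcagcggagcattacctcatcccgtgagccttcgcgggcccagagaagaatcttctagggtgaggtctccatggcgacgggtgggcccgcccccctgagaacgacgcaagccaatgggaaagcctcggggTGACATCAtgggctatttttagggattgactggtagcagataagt

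Of 32851 RefSeq windows of the same length, 1.6% held the octamer on either strand, 1.47% the CArG box, 4.7% the EGR motif GCGNGGGCG and 2.93% the AP-1 variant. The other motifs searched on both strands were AACAAAG and AACAATG (SOX; 5.03% and 3.29% of windows), TGANTCA (AP-1; 6.75%), TGACGTCA (CRE; 1.55%) and CAGGTG (ZEB box; 17.2%). Windows were found for 8 of the 10 genes, all but Sox10 and Pou3f1, and 6 of them have 1 window. The Nab1 window (chr1:52500449-52500698, minus), which reaches into the annotated gene, held 3 matches to the EGR motif, at 141, 109 and 38 bases before the start. The Nab2 and Id2 windows, and all but the first of the Egr2 and Zeb2 windows, lay inside the annotated genes. Other matches were found in 1 of the 4 Zeb2 windows (AP-1, at 189 and 132 bases before the start) and in 3 of the other 4 Egr2 windows, of which 2 overlap the one shown, while the first (chr10:67535249-67535498, plus) held none. These matches are letters in a window and say nothing on binding in these cells.

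The libraries held 3435 to 4586 cells after the filter on genes per cell, with 20203440 to 30334608 unique molecular identifiers (UMIs, counted cDNA molecules) each. Median UMIs per cell were 6794, 6077 and 6840 at P1 and 5561, 4983 and 3627 at P60, and the third P60 library also had the largest share of cells with over 10% mitochondrial counts (16.2%, against 2.97% to 13.6% in the others). Cells were grouped by clustering without the 10 genes, and classes were named from markers that contain none of them. The Schwann-like class held 3125 cells at P1 (median 5914 UMIs) and 351 at P60 (median 2249 UMIs), the fibroblast-like class 5113 and 7828, the endothelial-like class 725 and 1805, the mural-like class (pericytes and smooth muscle) 598 and 868, and the immune-like class 1050 and 1388. The 10 Schwann markers summed to between 32729 and 33537 counts-per-million UMIs (CPM) in the P1 Schwann-like cells and to 40844, 36983 and 29179 CPM at P60, with no marker at 0. Markers of other classes were also present in them. The 6 general fibroblast markers summed to 4686 to 5019 CPM at P1 and 2293 to 2586 at P60, while the markers of fibroblast subtypes went the other way, from 12.8 to 15.8 CPM at P1 to 204 to 360.1 at P60 for 6 epineurial, from 45.7 to 51.0 to 152 to 274 for 6 perineurial and from 24.6 to 29.6 to 48.0 to 70.4 for 5 endoneurial markers. The 7 endothelial markers summed to 44.3 to 52.1 CPM at P1 and 128 to 393 at P60, and the 9 mural markers to 50.2 to 60.3 and 212 to 306. The 7 immune markers summed to 14.1 to 23.9 CPM at P1 and to 728, 72.7 and 175 at P60, where 1 or 2 of Ptprc, Cd68 and Csf1r were at 0 in each library. Leaving out the Schwann-like cells that held 10 or more UMIs of Dcn, a fibroblast marker, removed few cells. The shares of cells with Sox10, after the thinning described below, were 29.8%, 25.2% and 25.7% at P1 both before and after. At P60 they were 28.4%, 37.4% and 44.2% before and 28.4%, 38.1% and 44.5% after. All 10 genes then kept the direction and the call of their age change. With so few cells removed this says little on fibroblast RNA, and the part of the other markers was not tested.

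All levels are CPM taken over the summed cells of a class or state in 1 library, so each library gives 1 value. Differences are log2 differences with their standard error (SE) from edgeR's quasi-likelihood test, and a gene is called where the Benjamini-Hochberg adjusted p over all genes tested is below 0.05. In the age tests within a class or pair of states, the p-values measure the spread between 3 pooled suspensions of each age. Tests between classes or states compare groups within the same libraries, so their p-values measure how much those differences vary between libraries. The classes and states were also clustered from the same cells on other genes, which can move with these levels. Small p-values between them are therefore not an independent check on the groups.

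Sox10, Pou3f1, Pou3f2 and Sox2 were far higher in the Schwann-like class than in any other, whereas Jun, Zeb2, Nab1, Nab2, Id2 and, at lower levels, Egr2 were shared with other nerve cells. Sox10 stood at 225, 199 and 193 CPM in Schwann-like cells of the 3 P1 libraries and at 256, 319.9 and 359 at P60. In the other 4 classes it lay between 2.06 and 11.6 CPM at P1 and between 0.689 and 4.10 at P60, so no library of another class came near the Schwann-like range. The same held for Pou3f1, with 529, 546 and 573 CPM in Schwann-like cells at P1 against 7.81 to 31.4 elsewhere, and 280.1, 429 and 223 at P60 against 0 to 3.89. Pou3f2 stood at 49.2, 59.3 and 57.5 CPM in Schwann-like cells at P1 and at 48, 32.7 and 58.3 at P60, and Sox2 at 47.2, 52.4 and 53.4 and, at P60, 24, 32.7 and 82.6. Neither gene exceeded 3.87 CPM in a library of any other class. The low levels elsewhere were also read per UMI of Sox10, over few UMIs (11 to 177 Sox10 UMIs in each other class at P1 and 10 to 62 at P60). For each Sox10 UMI at P1, Schwann-like cells held 2.69 Pou3f1 UMIs and fibroblast-, endothelial-, mural- and immune-like cells 2.56, 2.94, 4.91 and 3.05. For Pou3f2 the same ratios were 0.272 against 0.305, 0.371, 0.545 and 0.318, and for Sox2 0.25 against 0.311, 0.40, 0.455 and 0.364. The ratios in mural-like cells, with 11 Sox10 UMIs, were the farthest from the Schwann-like ones. At P60 the ratio of Pou3f1 was 0.933 in Schwann-like cells against 0.339, 1.13, 0.20 and 0.50, that of Pou3f2 0.15 against 0.113, 0.0667, 0.20 and 0, and that of Sox2 0.163 against 0.113, 0, 0.20 and 0.45, so the ratios at that age varied between classes. Egr2 at P1 had 1.08 UMIs per Sox10 UMI in Schwann-like cells and 9.1, 4.26, 5.0 and 6.61 in the others.

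**Figure D1:**
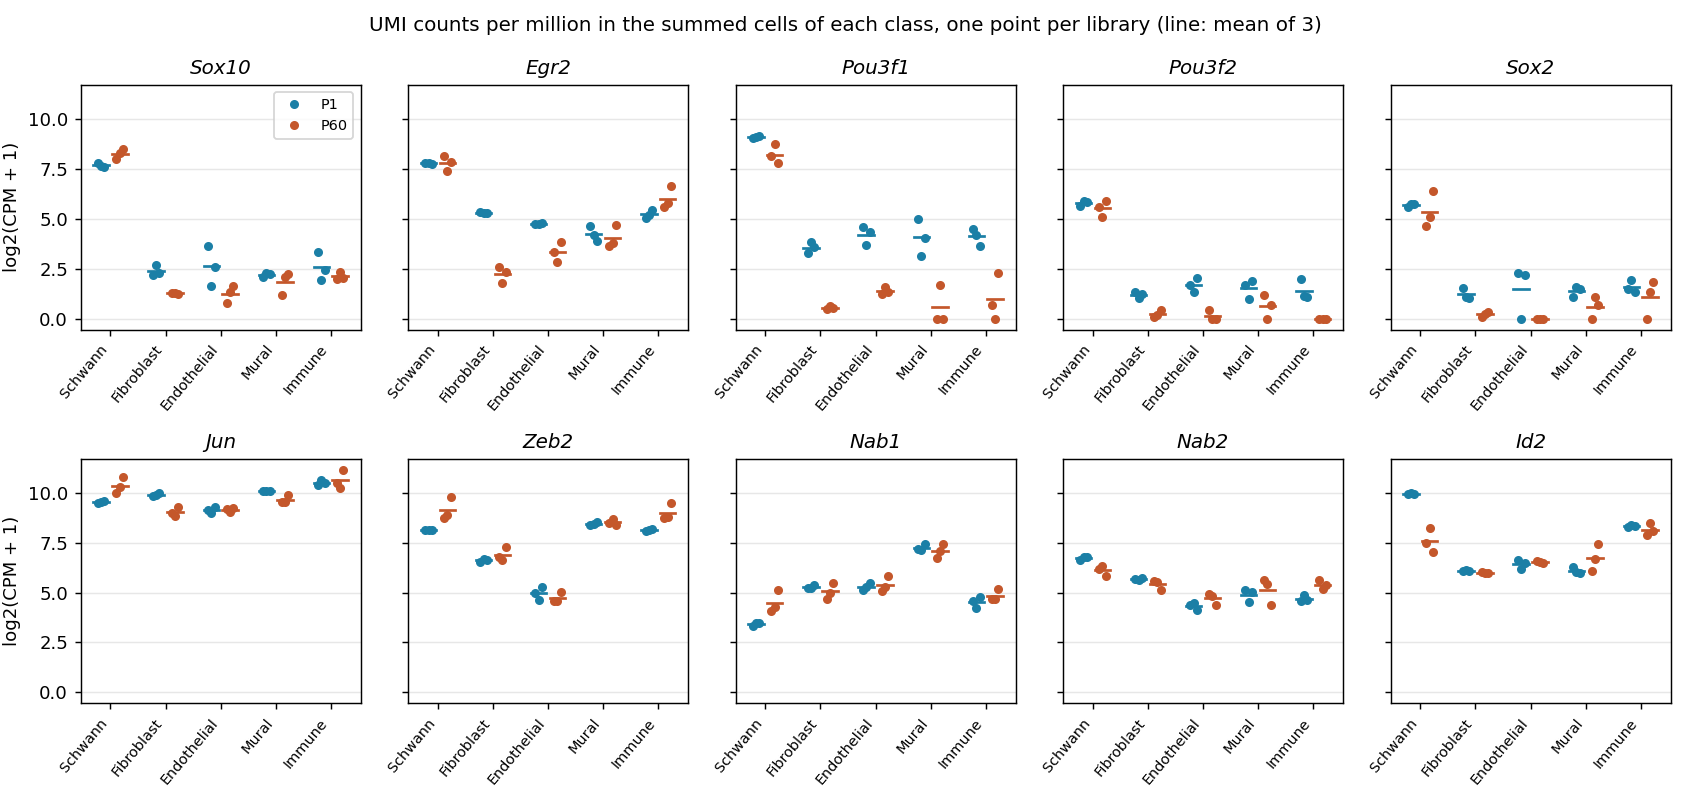
Levels of the 10 genes in the 5 cell classes at P1 and P60, as log2(CPM + 1), with 1 point for each library and a line at the mean of 3 libraries. Sox10, Pou3f1, Pou3f2 and Sox2 sit high in the Schwann-like class and near the bottom in the 4 others, while Jun, Zeb2, Nab1, Nab2 and Id2 are present across classes.

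Against the mean of the 4 other classes of the same libraries, 8 of the 10 genes were higher in Schwann-like cells at P1 and Jun and Nab1 were lower, where 71.3% of 12949 genes tested were called, 34% higher and 37.3% lower. The differences at P1 were largest for Sox10 (5.30, SE 0.11, adjusted p = 3.89e-19), Pou3f1 (5.03), Pou3f2 (4.82) and Sox2 (4.69). Id2 (3.12), Egr2 (2.84), Nab2 (1.76) and Zeb2 (0.99) followed. At P60, 8 genes were higher and Nab1 was lower, where 32.7% of 12667 genes tested were called, 16.1% higher and 16.6% lower. Sox10 differed by 6.95 (SE 0.17) and Jun by 0.53 (SE 0.10, adjusted p = 0.00011), while Id2, at 0.48, was no longer called (adjusted p = 0.375). Without the third P60 library Id2 was called at 0.91 (adjusted p = 0.00807), and without the second Nab2 was not (0.67, adjusted p = 0.0574).

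The shared genes stood high in different classes. Jun, the AP-1 subunit, stood at 1341, 1587 and 1442 CPM in immune-like cells at P1 and at 1469, 1199 and 2297 at P60. In fibroblast-like cells it stood at 919, 953 and 1025 at P1 and at 517, 455 and 638 at P60, and its range was 517 to 627 at P1 and 535 to 598 at P60 in endothelial-like cells and 1094 to 1115 and 740.0 to 957 in mural-like cells. Zeb2 ranged in mural-like cells from 336 to 371 CPM at P1 and from 337 to 412 at P60, and in immune-like cells from 274 to 287 and 428 to 717. Fibroblast-like cells held less Zeb2 (92.6 to 103 CPM at P1, 97.8 to 157 at P60), and endothelial-like cells the least of these classes (23.6 to 38 and 22.9 to 31.4). Id2 ranged at P1 from 315 to 334 CPM in immune-like, 66.5 to 68.9 in fibroblast-like, 73 to 97.3 in endothelial-like and 61.4 to 75.8 in mural-like cells, and at P60 from 236 to 356, 63 to 63.7, 89.6 to 96.2 and 66 to 173. The P1 Schwann-like level of Id2 lay above all of these. Nab2 ranged in the same order from 22.8 to 28, 49.4 to 52.2, 16.2 to 21.6 and 22.4 to 33.6 CPM at P1, and from 35.9 to 48, 34.6 to 47.2, 20.1 to 30 and 19.9 to 49.2 at P60. Nab1 was highest in mural-like cells, at 147, 142 and 171 CPM at P1 and 107, 136 and 174 at P60, above all Schwann-like libraries (9.09, 10.1 and 10.1 at P1, 16, 18.2 and 34 at P60). Egr2, which macrophages also use, stood at 31.7, 35.2 and 43.1 CPM in immune-like cells at P1 and 46.8, 54.9 and 101 at P60. In fibroblast-like cells it went from 40.3, 38.7 and 37.9 at P1 to 5.07, 2.4 and 3.98 at P60, with no overlap.

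The fibroblast-like class was not uniform. At P1, Egr2 stood at 59.8, 56.6 and 46.6 CPM in endoneurial-like fibroblasts, which lie among the axons, and at 20.2, 20.9 and 17.3 in epineurial-like ones of the outer sheath. Id2 showed the reverse order, with 159, 152 and 154 in epineurial-like and 10.2, 10.8 and 8.27 in endoneurial-like cells. Nab1 stood at 47.9, 46.6 and 52.1 CPM in the endoneurial-like and 11.5, 16.2 and 17.9 in the epineurial-like cells. At P60, perineurial-like cells, the barrier around each fascicle, had low Zeb2 (10.4, 9.75 and 16.3 CPM against 157, 167 and 245 in epineurial-like cells). Their Jun level was 253, 234 and 242 against 820.2, 859 and 1217 in endoneurial-like cells. None of these pairs of subtypes overlapped between libraries, and they are given as descriptions without a test.

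At P1, Schwann-like cells fell into immature-like cells (686, median 4828 UMIs), proliferating-like cells (558, median 6477) and promyelinating or myelinating-like cells (1881, median 6450). Cells of the promyelinating or myelinating-like state had more Egr2, Pou3f1, Nab1 and Nab2 and less Jun, Sox2, Zeb2 and Id2 than immature-like cells, so that 4 genes were higher and 4 lower, where 40.7% of 9409 genes tested were called, 19.9% higher and 20.9% lower. Egr2 stood at 108, 149 and 121 CPM in immature-like cells and at 309.6, 289 and 273 in promyelinating or myelinating-like cells (log2 difference 1.33, SE 0.07, adjusted p = 2.53e-77). All libraries of the second state lay above all of the first. Its cofactor Nab2 went from 73.3, 76 and 95.4 to 115, 122 and 117 CPM (log2 difference 0.65, SE 0.09, adjusted p = 3.58e-11). Nab1 stood at 3.71, 3.62 and 10.3 CPM in immature-like and at 10.8, 14.1 and 10.5 in promyelinating or myelinating-like cells (1.10, SE 0.32, adjusted p = 0.00202). The Nab1 groups were apart by a narrow margin, and the call was lost with DESeq2 (adjusted p = 0.103) and without the second P1 library (0.70, adjusted p = 0.16). Pou3f1 went from 498, 511 and 541 to 609, 617 and 649 CPM (log2 difference 0.40, SE 0.04, adjusted p = 1.96e-19), without overlap.

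Among the brakes on myelination, Jun had the widest gap, from 1525, 1700.1 and 1708 CPM in immature-like cells to 392, 434 and 459 in promyelinating or myelinating-like cells (log2 difference -1.81, SE 0.04, with a p too small for the software to resolve). Sox2 went from 64.9, 69.7 and 87.7 to 27.1, 32.7 and 30.3 CPM (log2 difference -1.18, SE 0.13, adjusted p = 2.15e-19), again without overlap. Id2 was lower by a smaller amount, from 1205, 1367 and 1364 to 835, 885 and 816 CPM (log2 difference -0.51, SE 0.03, adjusted p = 7.23e-50). Zeb2 differed in the direction of the brakes, from 412, 437 and 434 to 214, 218 and 217 CPM (log2 difference -0.86, SE 0.05, adjusted p = 1.37e-56). The lineage factor Sox10 went from 259, 209.9 and 233 to 208, 196 and 178 CPM, apart by a narrow margin, and Pou3f2 from 57.5, 66.1 and 52.4 to 46.5, 56.3 and 57.9, with overlap, and neither was called. Their log2 differences were -0.14 (SE 0.06, adjusted p = 0.0604) and 0.00 (SE 0.12, adjusted p = 0.997). Sox10 was called lower when libraries were scaled by size alone (-0.27, adjusted p = 0.000112), without the second P1 library (-0.22) and among cells with under 10% mitochondrial counts (-0.15, adjusted p = 0.0494). Immature-like cells were also led by stress-responsive genes such as Atf3, Cyr61 and Socs3, and the part of this in the Jun difference was not tested.

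Proliferating-like cells differed from immature-like cells in 5 genes, 1 higher and 4 lower, where 28.9% of 9409 genes tested were called, 16.5% higher and 12.4% lower. Sox2 was the gene that was higher, at 89.7, 106 and 104 CPM against 64.9, 69.7 and 87.7 (log2 difference 0.48, SE 0.12, adjusted p = 0.00061, adjusted p = 0.0574 with DESeq2). Egr2 was at its lowest of the 3 states, at 88.9, 67.3 and 83.4 CPM (log2 difference -0.61, SE 0.11, adjusted p = 2.46e-07). Pou3f1 (327, 326 and 334 CPM, log2 difference -0.61, SE 0.06, adjusted p = 1.79e-25) and Jun (981, 930.4 and 1065 CPM, log2 difference -0.68, SE 0.04, adjusted p = 1.23e-74) were also lower than in immature-like cells, with no overlap. Zeb2 was close to the threshold (-0.15, adjusted p = 0.0405), and its call was lost under several alternatives. Sox10, Pou3f2, Nab1, Nab2 and Id2 were not called, with log2 differences between -0.07 and 0.16.

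**Figure D2:**
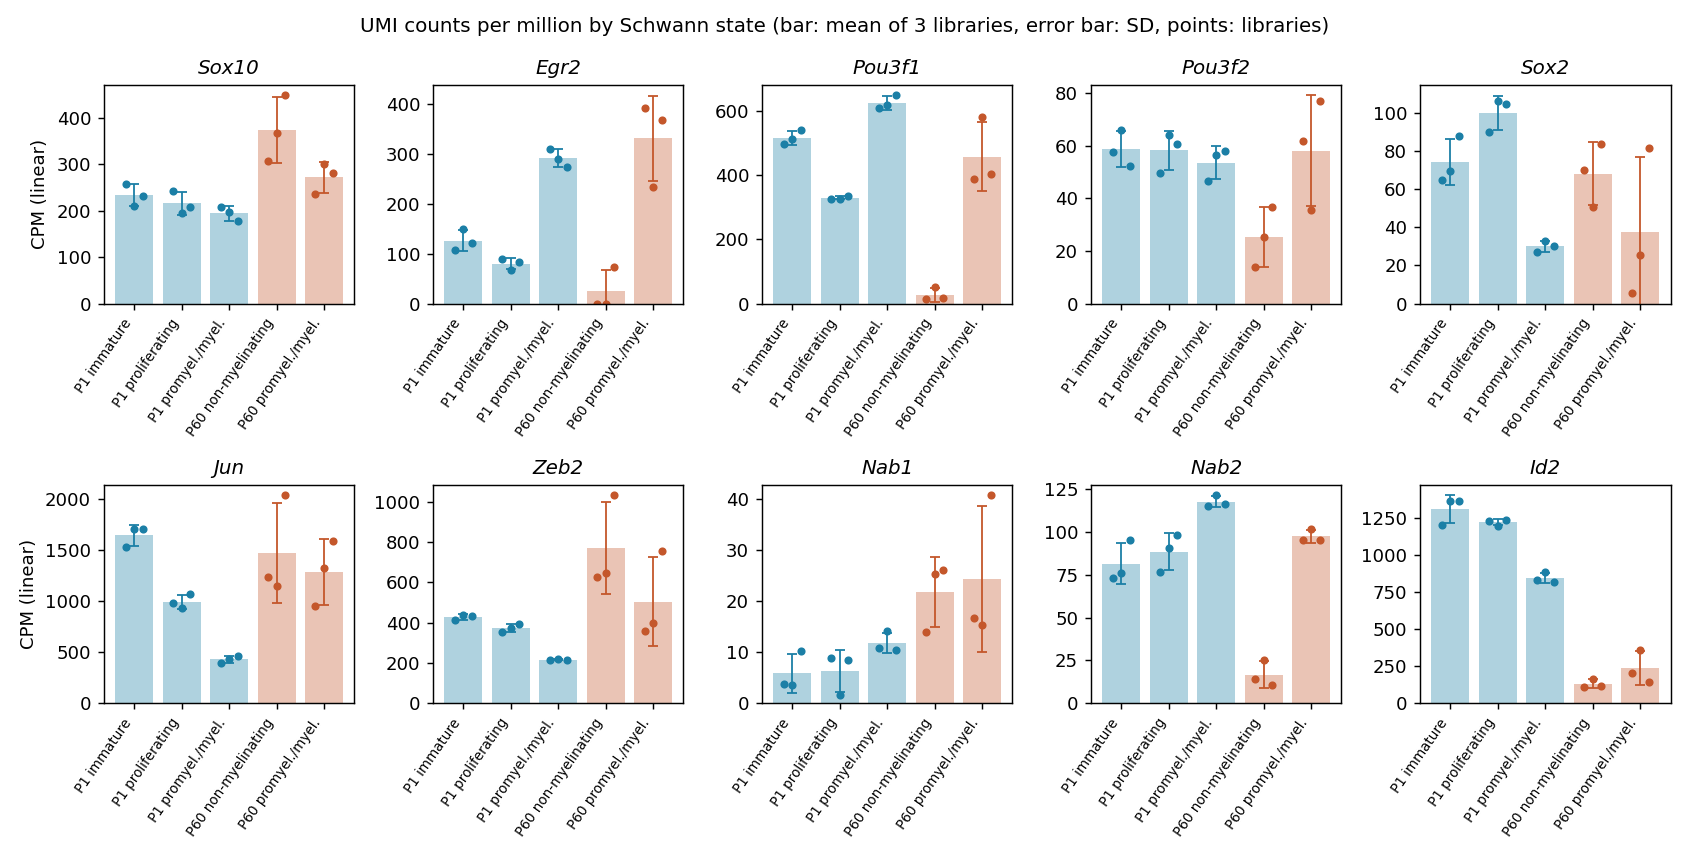
Levels of the 10 genes in the Schwann-like states, in CPM on a linear axis that starts at 0, with bars for the mean of 3 libraries, error bars for the SD and points for the libraries. Egr2, Pou3f1 and Nab2 are near 0 in the P60 non-myelinating-like cells except for Egr2 in 1 library, and among the P1 states Jun, Sox2 and Zeb2 are lowest in the promyelinating or myelinating-like cells.

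The promyelinating or myelinating-like cells of P1 were a range and not a single level. They comprised 4 sub-clusters, described here by their leading genes and without a test, since the cells were clustered on the genes that move with these levels. The sub-cluster led by Cdkn1c (597 cells) had the highest Pou3f1, at 837, 933 and 1038 CPM, together with Egr2 at 322, 309.6 and 316 and Id2 at 1425, 1489 and 1378. The sub-cluster led by myelin genes such as Ncmap and Pmp22 (455 cells) had Pou3f1 at 355, 317 and 333 CPM, Id2 at 311, 346 and 306 and Sox2 at 12.2, 10.4 and 16.9, the lowest of the P1 sub-clusters for Id2 and Sox2. In it Egr2 stood at 270.1, 272 and 235 CPM, above the immature-like level. Nab1 stood at 1.84, 0 and 1.53 CPM in the Cdkn1c sub-cluster and at 22.6, 23.7 and 21.1 in the myelin gene sub-cluster, so Nab1 differed among the sub-clusters of the state. The sub-cluster led by Drp2 and Fasn (323 cells) had Nab1 at 26.3, 46.7 and 20.5 CPM, but its cells were shallow (median 2980 UMIs) and had a mean of 17.8% mitochondrial counts.

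At P60, the Schwann-like cells were 160 non-myelinating-like cells (29, 31 and 100 in the 3 libraries, median 2034 UMIs) and 191 promyelinating or myelinating-like cells (45, 68 and 78, median 2550 UMIs). Of the latter, 128 were led by genes such as Csrp2, Cdkn1c and Cdc20. In them 2 immature and 2 myelin markers stood at least 2-fold above the other Schwann-like cells. With another scaling in the clustering the states held 204 and 148 cells. With the 10 genes kept in the clustering, 49 cells led by Cdc20 and Ccnb1 were named non-myelinating-like. The border between the P60 states thus depended on the clustering. Egr2, Pou3f1, Nab2 and Id2 were higher in the promyelinating or myelinating-like cells and Zeb2 was lower, 5 of the 9 genes that could be tested, where 27.1% of 3836 genes tested were called, 14% higher and 13.1% lower. Egr2 was at 0 UMIs in non-myelinating-like cells of the first and second libraries and at 73.1 CPM (14 UMIs) in the third, against 392, 234 and 368 CPM in promyelinating or myelinating-like cells (log2 difference 3.28, SE 0.44, adjusted p = 4.17e-05). Pou3f1 stood at 14, 50.8 and 15.7 CPM (8 UMIs in all) in non-myelinating-like and at 387, 580.5 and 404 in promyelinating or myelinating-like cells (log2 difference 4.30, SE 0.33, adjusted p = 1.43e-11). Nab2 stood at 14, 25.4 and 10.4 CPM (5 UMIs in all) in non-myelinating-like and at 95.3, 102 and 95.3 in promyelinating or myelinating-like cells (log2 difference 2.76, SE 0.53, adjusted p = 0.000138). For these 3 genes every promyelinating or myelinating-like library lay above every non-myelinating-like one, and the low levels rest on few UMIs. Pou3f2, at 14, 25.4 and 36.6 CPM in the former and 61.7, 35.6 and 77.2 in the latter, overlapped and was not called (log2 difference 1.26, SE 0.56, adjusted p = 0.102).

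Jun was not called between the P60 states and overlapped, with 1230.4, 1143 and 2037 CPM in non-myelinating-like and 947, 1319 and 1588 in promyelinating or myelinating-like cells (log2 difference -0.06, SE 0.17, adjusted p = 0.852). Sox2 was not called either, at 69.9, 50.8 and 83.6 CPM in the former and 5.61, 25.5 and 81.7 in the latter (log2 difference -0.61, SE 0.53, adjusted p = 0.456). With 25 and 24 Sox2 UMIs in all and a wide spread between the libraries, a difference was not detectable at this depth. Zeb2 stood at 629, 648 and 1034 CPM in non-myelinating-like and 359, 397 and 758 in promyelinating or myelinating-like cells, higher in the non-myelinating-like cells of every library (log2 difference -0.49, SE 0.17, adjusted p = 0.0318). The Zeb2 call was lost with DESeq2 (adjusted p = 0.418), without the library block (0.376) and without the first or the second P60 library. Id2 stood at 112, 165 and 115 CPM in the former and 207, 362 and 141 in the latter, higher in the latter within each library although the groups overlapped (log2 difference 0.87, SE 0.27, adjusted p = 0.0148). This call was lost with DESeq2 (adjusted p = 0.308), without the library block (0.0592) and without the second library (0.204). The Id2 difference was 0.02 (adjusted p = 0.959) when the 10 genes took part in the clustering. It was 0.14 (adjusted p = 0.733) with another scaling in a clustering that left them out. Sox10 was present in both states, at 308, 368 and 449 CPM in non-myelinating-like and 235, 300.4 and 281 in promyelinating or myelinating-like cells (log2 difference -0.36, SE 0.20, adjusted p = 0.217), and Nab1, with 8 and 15 UMIs, fell below the filter. Within the promyelinating or myelinating-like cells, 63 cells led by Spp1 and the immune genes H2-DMa and Cd74 had Pou3f1 at 102 ± 47 CPM (mean ± SD, n = 3) against 649 ± 128 in the other 128, with Egr2 at 338 ± 177 and 325 ± 90.4.

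From P1 to P60, Schwann-like cells as a whole were called higher for Sox10, Jun, Zeb2 and Nab1 and lower for Id2, Pou3f1 and Nab2, while Egr2, Pou3f2 and Sox2 were not called. That is 4 of the 10 genes higher and 3 lower, where 37.9% of 11196 genes tested were called, 19.6% higher and 18.3% lower, and the CPM of 49.8% of the genes did not overlap between the ages. The Nab1 call rests on 23 UMIs at P60 and was lost without the third P60 library. The ages differed in depth, in the mix of states and in the markers of other classes given above, and fewer cells of a state and less RNA of a gene within it cannot be told apart in the class as a whole. For this reason each gene is given for the class and then for pairs of states. The promyelinating or myelinating-like state held sub-clusters that differed in genes such as Pou3f1 and, at P1, Id2. The mix within a state and the level of a gene thus cannot be told apart in the pairs either. Between the promyelinating or myelinating-like cells of both ages, 3 of the 10 genes were higher at P60 and 2 lower, where 28.5% of 9508 genes tested were called, 13.6% higher and 14.9% lower. Between P60 non-myelinating-like and P1 immature-like cells, 2 of 9 were higher and 4 lower, where 35.4% of 6769 genes tested were called, 17.6% higher and 17.9% lower. With the left-out sub-clusters kept in, 3 genes were higher and 5 lower, where 44.2% of 11717 genes tested were called, 22.7% higher and 21.5% lower. Without the P1 proliferating-like cells 4 were higher and 3 lower, where 37.4% of 10495 genes tested were called, 19.8% higher and 17.6% lower.

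Id2 had the largest change, from 985, 1023 and 984 CPM at P1 to 180.1, 305 and 129 at P60 (log2 difference -2.40, SE 0.20, adjusted p = 2.61e-08), and the groups lay far apart. It also fell between the promyelinating or myelinating-like cells of the ages (-1.92, adjusted p = 1.07e-07) and between P1 immature-like and P60 non-myelinating-like cells (-3.37, adjusted p = 1.14e-18). Pou3f1, which marks the promyelinating stage, stood at 529, 546 and 573 CPM at P1 and 280.1, 429 and 223 at P60 (log2 difference -0.92, SE 0.16, adjusted p = 0.000142). Its change was -0.52 (adjusted p = 0.00442) between promyelinating or myelinating-like cells and -4.45 (adjusted p = 3.74e-16) between non-myelinating-like and immature-like cells. Nab2 went from 99.5, 108 and 109.7 to 72, 80 and 55.8 CPM without overlap (log2 difference -0.72, SE 0.18, adjusted p = 0.00377). The Nab2 change was called between non-myelinating-like and immature-like cells (-2.46, adjusted p = 0.000146) and not between promyelinating or myelinating-like cells (-0.34, adjusted p = 0.192).

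Jun rose from 721, 736 and 777 to 1028, 1269 and 1797 CPM (log2 difference 0.82, SE 0.16, adjusted p = 0.000606), highest in the third P60 library. The rise was also called between the promyelinating or myelinating-like cells (392, 434 and 459 CPM at P1 and 947, 1319 and 1588 at P60, log2 difference 1.53, adjusted p = 9.73e-08). P60 non-myelinating-like cells did not differ detectably from P1 immature-like cells (-0.08, SE 0.20, adjusted p = 0.809). Nerves of both ages were minced, digested with enzymes and sorted before sequencing. The part of this handling in the Jun levels was not tested. Sox10 rose from 225, 199 and 193 to 256, 319.9 and 359 CPM (log2 difference 0.56, SE 0.13, adjusted p = 0.00199), and in both pairs of states (0.43 and 0.77, adjusted p = 0.0254 and 0.000224). When the sub-clusters left out for markers of another class were kept in, the Sox10 change was 0.26 and not called (adjusted p = 0.163). Zeb2 rose from 279.7, 283 and 285 to 436, 469 and 886 CPM (log2 difference 1.06, SE 0.24, adjusted p = 0.00921), by 1.19 and 0.96 in the pairs of states. Nab1 rose from 9.09, 10.1 and 10.1 to 16, 18.2 and 34 CPM (log2 difference 1.25, SE 0.37, adjusted p = 0.00998, with 23 UMIs at P60). The Nab1 call was lost without the third P60 library (0.68, adjusted p = 0.368) and between promyelinating or myelinating-like cells (1.02, adjusted p = 0.106).

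Egr2 was not called in the class, at 227, 225 and 213 CPM at P1 and 280.1, 167 and 231 at P60, with all P1 libraries inside the P60 range (log2 difference -0.04, SE 0.14, adjusted p = 0.853). Promyelinating or myelinating-like cells also overlapped (0.13, adjusted p = 0.579), whereas P60 non-myelinating-like cells had less Egr2 than P1 immature-like cells (-1.62, SE 0.51, adjusted p = 0.023). With the left-out sub-clusters kept in, the class as a whole was called lower at -0.50 (adjusted p = 0.0181). Pou3f2, whose class values are given above, overlapped between the ages (log2 difference -0.27, SE 0.24, adjusted p = 0.392), and was called at -0.62 with those sub-clusters kept in (adjusted p = 0.0329). Sox2 went from 47.2, 52.4 and 53.4 to 24, 32.7 and 82.6 CPM and was not called (log2 difference -0.04, SE 0.28, adjusted p = 0.933), with the third P60 library above all P1 libraries and the other P60 libraries below them. Without that library Sox2 was called lower at P60 (-0.96, adjusted p = 0.0202). That library also held 100 of the 160 non-myelinating-like cells.

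**Figure D3:**
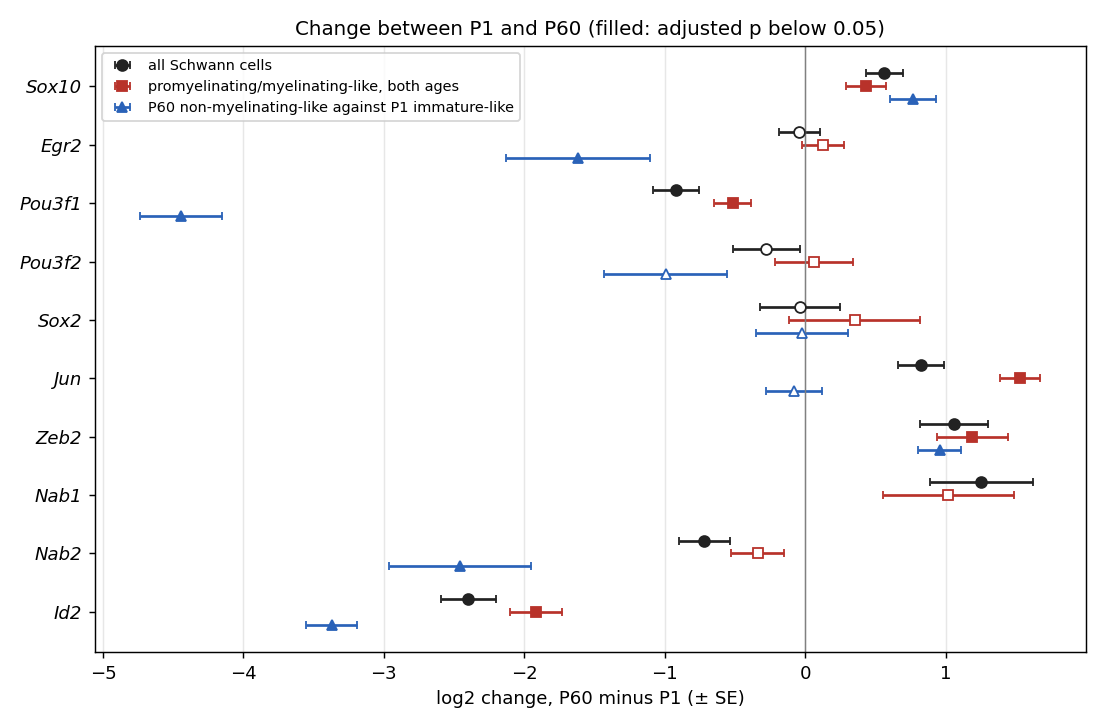
Log2 change from P1 to P60 of the 10 genes, with bars of 1 SE: circles for all Schwann-like cells, squares for promyelinating or myelinating-like cells of both ages, and triangles for P60 non-myelinating-like against P1 immature-like cells. Filled symbols have an adjusted p below 0.05. Id2 lies at -2.40, -1.92 and -3.37, Jun at 0.82, 1.53 and -0.08.

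The other classes also differed between the ages. In fibroblast-like cells 6 of the 10 genes were lower at P60 and none higher, where 59.7% of 14596 genes tested were called, 31% higher and 28.7% lower, with Jun at -0.84 (adjusted p = 0.00023) and Egr2 at -3.36 (adjusted p = 1.1e-06). The other 4 were Sox10, Pou3f1, Pou3f2 and Sox2, the genes whose low levels outside Schwann-like cells are given above. Immune-like cells had more Egr2 (0.95), Zeb2 (0.96) and Nab2 (0.80) and less Pou3f1 at P60, 4 of 7 tested, where 37.6% of 10268 genes tested were called, 20.2% higher and 17.4% lower. In endothelial-like cells Egr2 (-1.46) and Pou3f1 (-3.38) were lower, 2 of 7 tested, where 40.3% of 10876 genes tested were called, 20.9% higher and 19.4% lower. The Pou3f1 calls rest on 103 UMIs at P1 and 17 at P60 in endothelial-like cells and on 134 and 10 in immune-like cells. Per Sox10 UMI at P1 these classes held 2.94 and 3.05, against 2.69 in Schwann-like cells. The part of RNA from Schwann-like cells in these Pou3f1 changes was not tested. None of the 6 genes tested in mural-like cells was called by edgeR, where 33.2% of 8461 genes tested were called, 17.7% higher and 15.5% lower, and 1 gene, Id2 (0.92), had an unadjusted p below 0.05 and was called by DESeq2. The age change in Schwann-like cells differed from the mean change of the 4 other classes for all 10 genes, 8 of them more positive and 2 more negative, where 20.8% of 13951 genes tested were called, 8.8% higher and 12% lower. More positive does not mean a rise in Schwann-like cells. Of the 8, Pou3f1 fell there and Egr2, Pou3f2 and Sox2 were not called.

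The genes that work with these factors were read from 6 lists chosen by function. Over all genes tested, 19.6% were called higher and 18.3% lower with age in Schwann-like cells, 19.9% and 20.9% in P1 promyelinating or myelinating-like against immature-like cells, 16.5% and 12.4% in proliferating-like against immature-like cells, and 14% and 13.1% between the P60 states. Immediate early genes, which cells switch on within minutes of a stimulus and which include the AP-1 partners of Jun, were higher at P60 in Schwann-like cells for 11 of 13 and lower for 1 (median log2 difference 1.99, against 0.01 over all genes tested). Junb went from 285, 280.2 and 295 CPM at P1 to 1873, 2017 and 2251 at P60 (log2 difference 2.77, SE 0.13, adjusted p = 1.02e-12), and Fosb from 52.2, 62.3 and 59.1 to 220.1, 204 and 849.9 (log2 difference 2.96, SE 0.64, adjusted p = 0.0267). Atf3, a factor of the stress and injury response, went from 46, 43.9 and 37.7 to 184, 174 and 381 CPM (log2 difference 2.57, SE 0.32, adjusted p = 0.00106), with no overlap in any of these genes. Egr3, a relative of Egr2, was the list's gene that fell (-1.85). The part of the cell preparation in the changes of this list was not tested. At P1 the same list was lower in promyelinating or myelinating-like than in immature-like cells for 12 of 13 genes (median -1.82), among them Atf3 (-3.92) and Egr3 (-2.71), and lower in proliferating-like cells for 10, where 20.9% and 12.4% of all genes were called lower. At P60 it was split between the states, with 5 of 12 genes higher in promyelinating or myelinating-like cells, such as Dusp1 (1.58), and 2 lower, among them Atf3 (-1.10).

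Among 16 chromatin proteins and cofactors known to act with Egr2 or Sox10, none of 14 tested was higher at P60 and 5 were lower (median -0.53), where 19.6% and 18.3% of all genes were. Hdac2, a deacetylase needed for myelination, stood at 179, 192 and 179.9 CPM at P1 and 96, 131 and 43.7 at P60 (-1.20), and Hdac3 (-1.17) and Wwtr1, which encodes TAZ (-1.41), also fell. Between the P1 states 3 of these genes were higher and 5 lower in promyelinating or myelinating-like cells, against 19.9% and 20.9% of all genes, 4 were higher in proliferating-like cells, and between the P60 states none of 6 tested was called by edgeR, with 1 at an unadjusted p below 0.05.

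The Notch and SMAD list, with inhibitors of myelination and partners of Zeb2, had 6 of 10 genes lower in P1 promyelinating or myelinating-like than in immature-like cells and none higher (median -0.82), led by Hes1 (-2.33), Id3 (-2.25) and Id1 (-1.65). With age 2 of its 10 genes rose and 1 fell. Id3, a relative of Id2, moved against it, from 30.7, 20.4 and 30.1 CPM at P1 to 300.1, 411 and 471 at P60 (log2 difference 3.84, SE 0.20, adjusted p = 2.55e-08). At P60 Id3 stood at 699, 1067 and 721 CPM in non-myelinating-like and 140.1, 148 and 254 in promyelinating or myelinating-like cells (-2.02), and Hes1 was lower in the latter as well (-2.23). The gene of this list that fell was Ednrb, the endothelin receptor of Schwann precursors and immature cells, from 837, 768 and 734 to 68, 72.7 and 53.4 CPM (log2 difference -3.69, SE 0.18, adjusted p = 1.79e-12).

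Other factors of neural crest and Schwann precursors had 1 of 7 tested genes higher at P60 (Sox6, 3.19) and 3 lower, among them Etv5 (-2.81) and Sox4 (-0.92). Sox11 stood at 13.8, 11.1 and 13.9 CPM at P1 and at 0 UMIs in all P60 libraries. In the P1 promyelinating or myelinating-like cells, Sox8, a close relative of Sox10, was higher than in immature-like cells (2.0) and Sox6 (-3.41), Sox11 (-1.87) and Foxd3 (-0.96) were lower. Myelin genes bound by EGR2 or SOX10 were higher at P60 for 5 of 14 and lower for 3 (median 0.31), the latter near the 18.3% of all genes, with Drp2 up (3.06) and Mag down (-1.10, 685, 754 and 718 to 348, 433 and 287 CPM). Between the states 13 of the 14 were higher in promyelinating or myelinating-like cells at each age, but this list shares genes with the markers that named the states. Of 11 repair genes tied to Jun, 5 could be tested with age and 4 rose, Cdh2 (2.67), Gap43 (1.69) and Ngfr (0.78) among them, which are also genes of non-myelinating cells.

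To compare single cells of unequal depth, each cell was thinned to 1500 UMIs, which left out none of the P1 and 13 of the 351 P60 Schwann-like cells. Egr2 was then found in 26.2% ± 1.55 of P1 and 22% ± 3.22 of P60 Schwann-like cells (mean ± SD, n = 3), against 4.85% and 7.25% of immune-like cells, whose medians before thinning were 6816 and 3728 UMIs. Sox2 was found in 7.65% ± 0.532 and 6.07% ± 2.67, against 0.0891% and 0.279% in immune-like cells, and Sox10 in 26.9% ± 2.53 and 36.7% ± 7.96, against 0.873% and 0.416%. Without thinning the shares at P1 and P60 were 58.7% and 29.9% for Egr2, 23.3% and 9.4% for Sox2, and 68% and 54.1% for Sox10. The share of cells with Id2 was 64%, 65.5% and 66% at P1 and 13.5%, 30.3% and 13.3% at P60. Pou3f1 and Nab2 were likewise found in fewer cells at P60 in every library (47.4% and 25%, 14.9% and 7.89%, means of 3), and Jun and Zeb2 in more (48.6% and 59.2%, 33.7% and 55.8%). These 5 genes did not overlap between the ages, where 39.7% of 11196 genes did not, and nothing is read from their count. Each had an exact two-sided permutation p of 0.1, the smallest that 3 libraries against 3 allow. The count rested on the draw, with 8 of the 10 genes in another random draw (39.5% of all genes), 7 after thinning to 1000 UMIs and 8 without thinning (73.2% of all genes), and Id2, Jun, Nab2 and Pou3f1 were apart in each of these, Zeb2 in all but the one without thinning. Nab1 was found in 1.73% and 3.48% of Schwann-like cells, at or below its share in immune-like cells (2.78% and 3.69%), and no change is read from these shares.

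At P1 the states that held Egr2 in more cells held Sox2 in fewer. As means of the 3 libraries of an age, Egr2 was found in 15.3% of P1 immature-like, 10.3% of proliferating-like and 34.9% of promyelinating or myelinating-like cells, and Sox2 in 11.1%, 13.6% and 4.62%. At P60 Egr2 was found in 2.22% of non-myelinating-like and 35.9% of promyelinating or myelinating-like cells, again as means over libraries. No non-myelinating-like cell of the first and second P60 libraries held Egr2, so the 2.22% comes from the third alone. Sox2 was found in 11.1% and 2.31% of the same states. These P60 shares were not tested and, for Sox2, rest on a gene not called between these states. Jun at P1 was found in 74.4% of immature-like and 36.1% of promyelinating or myelinating-like cells, but at P60 in 61.5% of non-myelinating-like and 57.5% of promyelinating or myelinating-like cells.

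At P1, single cells with both Sox2 and Egr2 were about as frequent as the separate shares give. In the P1 libraries 19 of 923, 22 of 1133 and 14 of 1069 thinned Schwann-like cells held both, where 18.4, 24.1 and 20.1 would be found if the genes were independent. Over all P1 libraries that is 55 of 3125 cells (1.76%) against 62.6 under independence, and at P60 it is 0 of 74, 1 of 99 and 1 of 165, or 2 of 338 cells (0.592%) against 4.90. At full depth 399 of 3125 P1 cells (12.8%) and 8 of 351 P60 cells (2.28%) held both, against 428 and 10.1. The log2 odds ratio of the pair was 0.09, -0.17 and -0.67 in the P1 libraries and -1.38, 0.37 and -1.41 at P60, on both sides of 0 at each age (exact two-sided permutation p = 0.4 for the difference between ages). Within the states the counts of cells with both at P1 were 16 of 686 immature-like (11.7 under independence), 9 of 558 proliferating-like (7.76) and 30 of 1881 promyelinating or myelinating-like cells (30.5). With so few cells a departure of this size was not detectable.

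The odds ratios of the pairs pool the Schwann-like states, between which Egr2, Pou3f1, Jun, Sox2 and Zeb2 differed at P1. The part of the state mix in them was not tested. Of the 14 pairs compared, Pou3f1 and Egr2 were found together more often than independence gives in every P1 library, with log2 odds ratios of 0.63, 0.73 and 0.49 at P1 and 1.38, -0.06 and 1.25 at P60. Jun and Sox2 also went together at P1 (0.80, 1.02 and 1.10), and at P60 gave 2.61, -0.01 and -0.28. Jun and Egr2 were found together less often at P1 (-0.40, -0.38 and -0.03) and more often at P60 (0.58, 0.83 and 0.70), without overlap. Egr2 and Zeb2 gave -0.78, 0.00 and -0.28 at P1 and -1.0, -0.88 and -0.80 at P60. The exact two-sided permutation p of the difference between ages was 0.1 for Jun and Egr2, for Egr2 and Zeb2, for Egr2 and Nab2, for Pou3f1 and Sox2 and for Pou3f1 and Pou3f2, the smallest possible, and above it for the other 9 pairs. After adjustment over the 14 pairs the lowest value was 0.28.

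**Figure D4:**
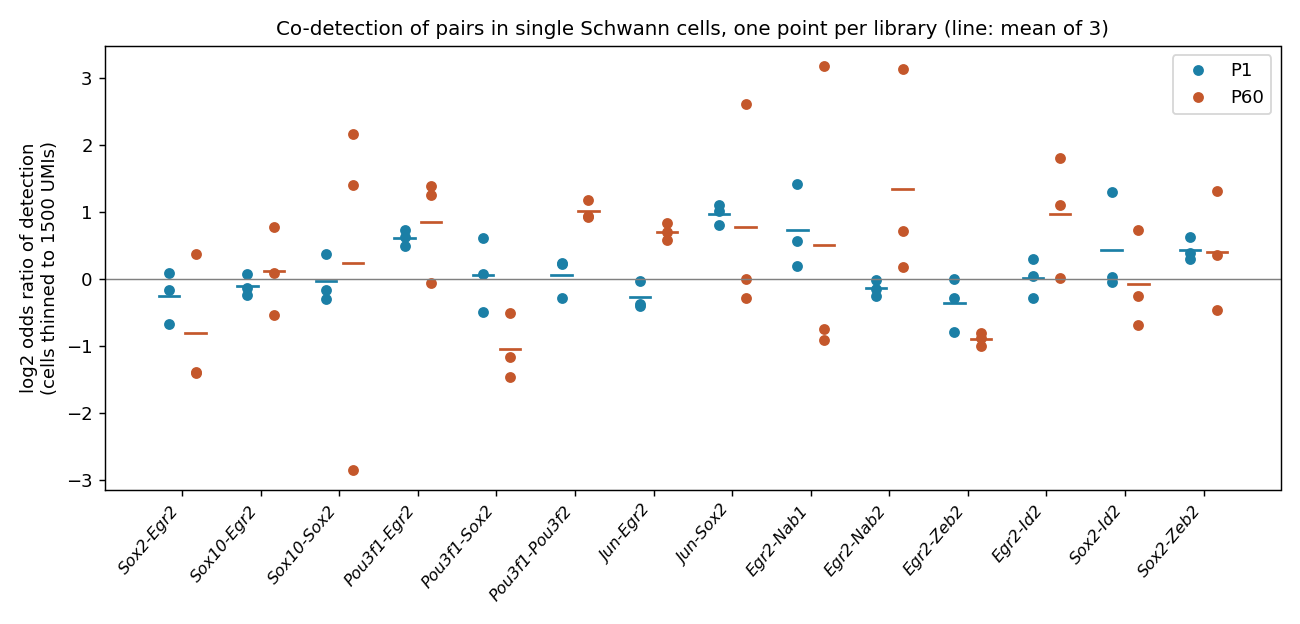
Log2 odds ratio of co-detection for 14 pairs of genes in single Schwann-like cells thinned to 1500 UMIs, with 1 point for each library at P1 and P60. Values above 0 are pairs found together more often than their separate shares give, and the P60 points, which rest on 74, 99 and 165 cells, spread more widely than the P1 points.

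Across 15 sums of cells (5 states in 3 libraries), the gene whose level went most closely with another was Pou3f1 with Nab2 (Pearson r of log2(CPM + 10) = 0.976). Next came Sox10 with Zeb2 (0.849) and Jun with Zeb2 (0.84), while Sox2 with Egr2 gave -0.43 and Nab1 with Id2 -0.82. Among 7889 genes, those closest to Sox10 were 2610203C20Rik (0.951), Sptbn1 (0.932) and Plxdc2 (0.93), and those closest to Egr2 were Tcim (0.959), Plekhg3 (0.955) and Prx (0.951), the myelin protein periaxin. Those closest to Pou3f1 after Nab2 were Trib2 (0.971) and Habp4 (0.969), and those closest to Sox2 were Hnrnpr (0.908), Gpc3 (0.902) and Saal1 (0.887). The sums of a library share its depth and those of an age share its state mix, so these values are descriptions.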

How the data were processed

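Counts were deposited by the authors as raw UMI counts per gene and cell, made with Cell Ranger 2.0.2 (labels: GRCm38.p5; the methods text names a human build, GRCh38.p10, and the gene identifiers are of mouse). The 10 genes and the gene lists were chosen with earlier results of these data known. Cells with 500 to 5000 detected genes were kept, as in the study's filter, and more cells passed than the study states (P1: 11735 among 11827 barcodes, P60: 12602 among 12683). Pairs of libraries shared 14 to 33 barcodes, where chance gives 16.6 to 28.8. Doublets were not called. Cells with the most UMIs were left out in an alternative. Clustering used Seurat 5.3.0 for each age (10 principal components, resolution 0.5 at P1 and 0.4 at P60, and for Schwann-like cells 7 components, 0.4 and 0.3), with the 10 genes left out of the variable genes. A class was named where at least 3 of its markers stood 4-fold above the lower quartile of the clusters. A state was named where at least 3 stood 2-fold above the lowest Schwann sub-cluster. Such markers need not lead the sub-cluster. A P1 promyelinating or myelinating-like sub-cluster of 506 cells had no marker 2-fold above the other Schwann-like cells. Markers also had to be found in at least 25% of the cells. These limits were set after the data were seen, and they left out 3.62% of P1 and 0.722% of P60 cells as Schwann sub-clusters led by genes of another class, 5.96% of P1 cells as unnamed and 2.15% of P60 cells as mixed, so names may differ from the study's. UMIs were summed by class or state and library and tested with edgeR 4.0.16 (TMM, filterByExpr, quasi-likelihood, library as block within an age, Benjamini-Hochberg over all genes tested) in R 4.3.3, checked on simulated counts. DESeq2 1.42.0 was an alternative. Genes named from the lists were at most 4 of a list in a comparison, mostly called members with large changes. Some, such as Egr3 with age, were named for their direction although other members changed more. Shares and co-detection used cells thinned to 1500 UMIs (0.5 added to each cell of the odds ratio table) and exact permutation tests (scipy 1.17.1). Motif searches and the 250-base windows used RefSeq tables.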

Additional observations from a re-analysis of the deposited data

Results flagged for a closer look

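The age change of all 10 genes in Schwann-like cells differed from the mean age change of the 4 other classes by edgeR's quasi-likelihood test of the difference itself, with Benjamini-Hochberg adjusted p-values, where 20.8% of 13951 genes tested did. The difference in log2 change (Schwann-like minus other classes) was positive for 8 genes. It was 3.26 for Pou3f2 (SE 0.64, adjusted p = 9.5e-05), 2.93 for Pou3f1 (adjusted p = 0.000139), 2.49 for Sox2 (adjusted p = 0.00146) and 1.54 for Sox10 (adjusted p = 8.2e-05). In these 4 genes the other classes had between 0 and 31.4 CPM at P1 and between 0 and 4.10 at P60, and several of their libraries held no UMI, so the size of the difference depends on the prior count of the fit. Of them only Sox10 was called higher at P60 in Schwann-like cells, so the positive values come from lower levels in the other classes. The part of RNA from Schwann-like cells in those levels was not tested. For the genes that other classes express, it was 0.99 for Nab1 (adjusted p = 0.0261), 0.92 for Jun (adjusted p = 5.68e-05), 0.75 for Egr2 (adjusted p = 0.014) and 0.61 for Zeb2 (adjusted p = 0.00922). Jun rose in Schwann-like cells and fell in fibroblast-like cells. It was negative for Id2 (-2.75, adjusted p = 1.23e-06) and Nab2 (-1.13, adjusted p = 7.19e-06), which fell in Schwann-like cells. The call was lost for Egr2 without the second P1 (adjusted p = 0.0624) or the second P60 library (0.133), for Sox2 without the third P60 library (2.06, adjusted p = 0.0841), and for Nab1 without the third P60 library (0.76, adjusted p = 0.434), with no filter on low counts (0.89, adjusted p = 0.0966), with another scaling in the clustering (0.87, adjusted p = 0.0789) and without the Schwann-like cells that held at least 10 Dcn UMIs (0.88, adjusted p = 0.0661). Without those Dcn cells, which were few, the other 9 genes kept their calls. Depth and the markers of other classes also differed between the ages, and their part was not tested.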

How the results depend on the processing

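Over all comparisons and alternatives, 1370 of 1425 values of the 10 genes kept their direction and their side of the threshold, 34 lost the call, 20 gained it and 1 turned. The value that turned was the Jun age change, which was -0.080 and not called for P60 non-myelinating-like against P1 immature-like cells. The number of the 10 genes called in endothelial-like cells was 5 with no filter on low counts (2 otherwise) and 2 to 4 without 1 library. In mural-like cells it was 1 with DESeq2, 1 with scaling by library size, 1 with the replicate block, 3 with no filter and 0 to 3 without 1 library (0 otherwise). For proliferating-like against immature-like cells it was 3 with DESeq2 and 4 to 5 without 1 library (5 otherwise). For the P60 states it was 3 with DESeq2, 3 with no replicate block and 3 to 5 without 1 library (5 otherwise). Shares of cells that did not overlap between ages numbered 8 without thinning and 8 with another random draw (5 otherwise). Without 1 library the count was 6 to 7 for the age change in Schwann-like cells, 6 to 7 in fibroblast-like and 4 in immune-like cells, 8 for promyelinating or myelinating-like against immature-like cells, 10 and 8 to 10 against the other classes at P1 and P60, and 8 to 10 for the difference in age change. The replicate numbers did not pair P1 with P60 libraries (correlations of deviations -0.01, 0.03 and 0.03), and outside mural-like cells the age comparisons with the replicate block kept their counts within 1.5 times. The 351 P60 Schwann-like cells, 160 of them non-myelinating-like, limit what could be called for Pou3f2, Sox2 and Nab1. Cell Ranger's cell calling, the sort and the free RNA of the suspensions were not varied.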

Other observations

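Cells that entered no comparison also held these genes. The P1 Schwann sub-cluster left out of the class (425 cells, led by haemoglobin and fibroblast genes, high in mitochondrial counts) had Sox10 at 134, 103 and 108 CPM in the 3 libraries, Egr2 at 149.7, 149 and 166 and Nab1 at 27.3, 41.1 and 29.8. Its Nab1 level lay above, and its Sox10 level below, all 3 libraries of the P1 Schwann-like class. The 91 cells left out at P60, led by fibroblast and perineurial genes, had Sox10 at 145, 119.9 and 86.6 CPM, Egr2 at 0, 55.3 and 31.5 and Pou3f1 at 0, 87.6 and 23.6. The 699 P1 cells of no named class had Sox10 at 17.3, 13.5 and 17.1 CPM. No test was made on these cells.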
